A study of Saccharomyces cerevisiae with 20 samples.

Results

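Of the 421 named histone mutant strains in the barcode table of a pooled yeast library, 68 (16.2%) had a count of 0 for both of their barcodes in every one of 20 sequenced libraries, and 353 had counts. The strains were chosen by that rule, the sum of the up and the down barcode counts of a strain over all libraries being 0, with the wild type left out, so the counts below are given as a description with no test. The 68 strains carried 66 distinct mutations, since the deletions H3[del 1-20] and H3[del 1-28] were each listed 2 times with different barcode pairs and all of these entries were at 0. They comprised 43 single substitutions, 24 tail deletions and 1 strain with several substitutions.

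The library was built in a background derived from strain JDY86, a budding yeast, each strain with a designed change in H3 or H4 and 2 barcodes of 20 bases. All strains, the wild type included, lacked the HHT1-HHF1 gene pair, which was replaced by NatMX4, so that the HHT2-HHF2 locus was the sole source of H3 and H4. The pool was grown, diluted into YPD medium and incubated as 1 culture, with samples at days 0, 1, 2, 3, 5, 7, 14, 24, 34 and 44. Cells of each day were separated by density, which gave the quiescent and the non-quiescent fraction. Each fraction and day gave 1 library, 10 per fraction, with no replicate culture.

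H3 and H4 each consist of a flexible N-terminal tail, which is the main site of acetylation and methylation, and a folded domain of helices joined by loops, and an H3-H4 pair forms the centre of the nucleosome on which DNA is wound. In the fold, the loops and the helix ends bring arginines and lysines against the DNA, while the helix faces hold the histones together. Since the altered gene was the only one for that histone, a strain whose altered histone does not support growth cannot be kept in such a collection. Inviability of a strain and its absence from the pool for another reason cannot be told apart from these counts.

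The barcodes of the repeated deletions are shown because they tie the same mutation to separate identifiers. Each sequence is written 5′ to 3′, and capitals mark the bases at which the 2 entries of one deletion differ.
H3[del 1-20] (entry 1), up barcode: AATATGATGcacGCGCTGCC
H3[del 1-20] (entry 2), up barcode: GTCCCTTACcacAGAGAAAG
H3[del 1-20] (entry 1), down barcode: CTGATGcgACTCctAgaCtt
H3[del 1-20] (entry 2), down barcode: GAACGTcgCGGActTgaTtt
H3[del 1-28] (entry 1), up barcode: ATAACcgAGGTgAagtGATC
H3[del 1-28] (entry 2), up barcode: TAGTAcgTCCGgCagtTCCT
H3[del 1-28] (entry 1), down barcode: GCCtGcACCaAaTcTTgAAa
H3[del 1-28] (entry 2), down barcode: TAAtTcTGGaCaAcCGgGTa
The up barcodes of the 2 H3[del 1-20] entries differed at 17 bases and the down barcodes at 12, and those of H3[del 1-28] differed at 14 and 13, so that 4 barcodes of unlike sequence were at 0 for each deletion.

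The barcodes at H4Y98, the tyrosine of the short H4 strand that docks on H2A, are shown because the residue held both absent strains and a strain with counts, with no capitals since no bases are set against each other.
H4Y98A, up barcode: tcaggtgagtcattggctct
H4Y98A, down barcode: aggaacatcttggcaatgac
H4Y98E, up barcode: ggtccatatttagcaatccc
H4Y98E, down barcode: gatgtaccttcacgactctg
H4Y98F, up barcode: tatggaacgacatccgagcc
H4Y98F, down barcode: agcacaccattgaattgacc
H4Y98A and H4Y98E had 0 counts for each of these, whereas H4Y98F had 15259 up and 12806 down counts over the 20 libraries. In base composition the barcodes of the absent strains were like those of the strains with counts: the GC content lay between 45% and 55% with a median of 50% in both sets, and the longest run of 1 base was 3 in both. The nearest other barcode was at a median of 8 mismatches in both sets, and the closest was at 6 mismatches for absent strains and at 4 (down) and 5 (up) for strains with counts.

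Library totals ranged from 126647 to 337544 counts. A count of 0, read as fewer than 3 counts, allowed a share of up to 0.000889% to 0.00237% of a library, and of up to 8.68e-05% of the 3457088 counts of all libraries together, a limit for counting error alone, because reads copied by PCR do not each stand for a molecule. The 346 kept strains (10 or more counts per library on average) had a median count of 204.5 to 484.5 between libraries, 68.2 to 161.5 times that 3-count limit. All 68 barcode pairs were listed in the count files. The 68 strains were at 0 in both day 0 libraries, and no named strain that was at 0 at day 0 was counted on a later day. Among the 353 strains with counts, 344 were counted in all 20 libraries and 9 were at 0 in at least 1, with 0 to 6 such strains per library. The wild type had 23791 counts in all and at least 841 in each library.

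Just outside the rule lay a few strains with very low counts. None had between 1 and 3 counts in all, and the lowest above 0 was H3I89A, a change in the H3 α2 helix, with 13 counts, of which 4 were in the quiescent and 7 in the non-quiescent library of day 0. H3K122A followed with 45 counts in 12 libraries. H4[del 1-8] had 60 counts, 41 in the quiescent and 19 in the non-quiescent day 0 library, and 0 in each of the other libraries, so that it was present at the start and not detectable later. H4R55A had 176 counts, of which 90.9% were in the day 0 libraries. H3K56A had 202 counts, with 98 in the quiescent and 56 in the non-quiescent library of day 0. H4D68N was spread evenly, with 2 to 8 counts in each of the 20 libraries and 98 in all. The remaining strains among the 10 lowest were H3K4,9,14,18A with 129 counts, H4S47D with 161, H3K115Q with 314 and H3L61A with 341. In all, 4 strains with counts had 100 or fewer and 30 had 1000 or fewer, while the median total of the kept strains was 6638.5.

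Tail deletions were absent most often. Of 71 deletions listed, 24 (33.8%) were absent, against 43 of 345 single substitutions (12.5%). For H3 these were 20 of 51 deletions (39.2%) and 21 of 195 substitutions (10.8%), and for H4 they were 4 of 20 deletions (20%) and 22 of 150 substitutions (14.7%). Of the 5 strains with several substitutions 1 was absent, H4K5,8,12,16R, in which the acetylated lysines of the H4 tail were all changed to arginine. Its counterpart with glutamine, H4K5,8,12,16Q, had 4283 up counts and 0 down counts, and was the only named strain with counts from 1 barcode and none from the other.

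The absent H3 deletions were the long ones. They were H3[del 1-8], H3[del 1-16], both entries of H3[del 1-20], H3[del 1-24], both entries of H3[del 1-28], H3[del 1-32], H3[del 4-30], H3[del 4-35], H3[del 5-16], H3[del 5-28], H3[del 5-32], H3[del 9-24], H3[del 9-28], H3[del 9-32], H3[del 9-36], H3[del 13-36], H3[del 17-28] and H3[del 17-36]. Their median length was 24 residues (8 to 32), against 8 residues (4 to 20) for the 31 H3 deletions with counts. None of the 11 H3 deletions of 4 residues was absent. Of those of 8 residues 1 of 8 was absent, of those of 12 residues 2 of 8, of those of 16 residues 2 of 6, and of those of 20 residues 4 of 6. All 11 H3 deletions of 24 or more residues were absent. The share thus grew with length over the lengths that held at least 6 strains, while the single deletion of 17 residues, H3[del 4-20], had counts.

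The start of a deletion also differed between absent and counted strains, but start and length went together. Of the 9 H3 deletions of more than 4 residues that began at residue 1, 8 were absent (88.9%) and H3[del 1-12] was the exception, with 655 counts. Most of these 9 removed 20 or more residues, and they include both entries of H3[del 1-20] and of H3[del 1-28]. Over all starts, 15 of 17 H3 deletions of 20 or more residues were absent (88.2%). Start was not examined apart from length. Length did not order the strains fully. H3[del 1-8] was absent although H3[del 1-12], which removes those residues and more, had counts. Likewise H3[del 5-16] was absent while H3[del 5-20], H3[del 5-24] and H3[del 4-20] had counts, H3[del 9-24] was absent while H3[del 5-24] had counts, and H3[del 17-28] was absent while H3[del 13-28], H3[del 13-32] and H3[del 17-32] had counts. These 4 were the deletions, of the 20 absent ones of either histone with a larger listed deletion around them, for which a larger one was counted. Each of the 24 absent deletions contained at least 1 smaller deletion with counts.

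The absent H4 deletions were H4[del 1-16], H4[del 1-20], H4[del 1-24] and H4[del 9-24], of 16 to 24 residues, against 4 to 12 residues for the 16 H4 deletions with counts. All 4 listed H4 deletions of 16 or more residues were absent and none of the shorter ones was. H4[del 9-16] and H4[del 5-12], which lie inside H4[del 1-16], had 48342 and 17396 counts. H4[del 1-8], which also lies inside it, had 60 counts, all of them in the day 0 libraries.

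The totals of the counted H3 deletions over all days were lower the longer the deletion, but their levels at day 0 were not. The median total over the 20 libraries was 5352 counts for 11 deletions of 4 residues, 4120 for 7 of 8 residues, 1519 for 6 of 12 residues, 983 for 4 of 16 residues and 752.5 for the 2 of 20 residues. The ranges of neighbouring lengths overlapped, with 607 to 21773 counts at 4 residues and 946 to 6674 at 8 residues. The counted deletions of 20 residues were H3[del 5-24] with 1105 counts and H3[del 13-32] with 400, and at day 0 they stood at a mean of 2106 and 974 CPM, which are counts scaled to a library total of 1000000. The median level at day 0 was 1998 CPM at 4 residues, 1569 at 8, 1682 at 12, 2025 at 16 and 1540 at 20, with no order by length, so the decline in the totals lay in the later libraries. The 2 longest counted deletions were thus well above the detection limit at the start of the culture.

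Within the tails, single substitutions were almost never absent. Of the tail substitutions, 79 in H3 and 48 in H4, 3 were absent (2.36%), against 40 of 218 in the folds (18.3%). The H3 strains were H3K42A and H3K42Q, at a lysine next to the DNA as it enters the nucleosome, and H3K42R had 4060 counts. The H4 strain was H4G28A, at the border of the tail, and with the borders moved by 2 residues the share was 3.75% in the H3 and 5.66% in the H4 tail. None of the 27 substitutions of acetylated tail lysines was absent, none of the 16 of phosphorylatable tail residues and none of the 12 of the H4 basic patch, the stretch from residue 16 to 20 that binds silencing proteins. H3 deletions that included residues 1 to 3 were absent in 80% of cases, and H4 deletions that included residues 1 to 4 in 50%, while none of the 65 H3 and 41 H4 substitutions at the residues that any deletion removed was absent.

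The H3 αN helix, which lies against the DNA ends, held the highest share of any segment, 6 of 14 substitutions (42.9%), and the absent strains were H3G44A, H3V46A, H3R49A, H3R53A, H3R53K and H3K56R. Several residues of this helix had no named substitution, so the share covers only part of it. The H3 αN to α1 linker had 1 of 6 absent, H3T58D, and the H3 α1 helix 2 of 22, H3R63A and H3R63K. The L1 loop of H3 had 1 of 11, H3L82A, and the α2 helix, the long central helix, 5 of 35 (14.3%), namely H3S86A, H3Q93E, H3Y99E, H3E105A and H3T107A. The L2 loop of H3 had 1 of 4, H3K115A, and the α3 helix and C-terminus 3 of 24 (12.5%), namely H3Q120A, H3K122R and H3R129K.

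In H4 the L1 loop, a DNA-binding loop, held the highest share, 3 of 8 (37.5%), with H4K44A, H4I46A and H4G48A. It was followed by the α1 helix with 4 of 16 (25%), H4T30D, H4K31R, H4R35A and H4R35K. The α2 helix had 8 of 40 (20%), namely H4L49A, H4Y51A, H4E53A, H4V54A, H4K59A, H4Y72E, H4T73A and H4E74Q. The L2 loop had 1 of 9, H4K79A, the α3 helix 3 of 16 (18.8%), H4T82D, H4Y88E and H4K91A, and the C-terminus 2 of 13 (15.4%), H4Y98A and H4Y98E. From the L1 loop to the start of the α2 helix, at H4 residues 44 to 54, 7 of 15 substitutions were absent (46.7%), all of them among the 10 alanine strains. At H3 residues 42 to 53 it was 7 of 13 substitutions (53.8%) and 5 of 7 alanine strains (71.4%), with no named substitution at several of these residues. Both windows and the look at alanine strains were chosen after the values were seen, and stand beside 18.3% of all fold substitutions and 19.8% of fold alanine strains. Segments hold 4 to 79 listed substitutions, so a single strain moves the share of the smallest by 25 percentage points.

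The strains with counts in these segments were lower at the start in some cases. At day 0 the median was 738 CPM for the 5 counted strains of the H4 L1 loop and 1370 for the 8 of the H3 αN helix, against 2042 for all 178 counted fold substitutions, 2011 for the 124 of the tails and 1819 for the 47 counted tail deletions, 3 values close to each other. Elsewhere the medians did not follow the share of absent strains. The H3 L2 loop and the H4 α1 helix, with 25% absent each, were at 2573 and 2108 CPM. The H4 α3 helix, with 18.8% absent, was at 1204. The ranges were wide, 61.0 to 7275 in the H4 L1 loop and 111 to 3580 in the H3 αN helix, and overlapped those of the other segments. Over all days, which include the later loss of strains, a total of 1000 counts or fewer was found in 10 of 47 counted tail deletions (21.3%), 17 of 178 counted fold substitutions (9.55%) and 2 of 124 counted tail substitutions (1.61%).

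By the kind of change, substitutions to glutamate had the highest share of any new residue, 5 of 11 absent (45.5%). This share came mostly from tyrosine, since of glutamine changes to glutamate 1 of 7 was absent (14.3%), H3Q93E. Of tyrosine changes, all 4 to glutamate were absent (H3Y99E, H4Y72E, H4Y88E and H4Y98E), 2 of 4 to alanine (H4Y51A and H4Y98A) and none of 5 to phenylalanine, which keeps the aromatic ring. At H3Y99 and H4Y88 the alanine and the phenylalanine strain both had counts and the glutamate strain was at 0. Among serines and threonines, 3 of 23 changes to aspartate were absent, H3T58D, H4T30D and H4T82D, all from threonine. At each of these residues the alanine strain had counts (12594, 4601 and 2829 in that order). The reverse held at H3S86, where alanine was absent and H3S86D had 16604 counts. None of the 21 changes of alanine to serine was absent, and none of the 8 changes of proline or 11 of aspartate. Of these, 13 of the alanine and 2 of the proline changes lay in the folds. Of the aspartate changes, 5 to alanine and 4 to asparagine lay in the folds. The others lay in the tails.

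Alanine replaced the residue in 26 of the 43 absent substitutions, and alanine strains were absent in 26 of 184 (14.1%). For hydrophobic residues of the fold, 7 of 38 alanine strains were absent (18.4%), against 17 of 83 for other fold residues (20.5%). The hydrophobic ones were H3V46A, H3L82A, H4I46A, H4L49A, H4Y51A, H4V54A and H4Y98A. Among glycines and prolines of the fold 2 of 12 changes were absent, the glycines H3G44A and H4G48A.

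Of lysine changes 10 of 79 were absent (12.7%) and of arginine changes 8 of 53 (15.1%), close to the 12.5% of all substitutions, against 46.2% for tyrosine and 21.7% for threonine. These shares include the tails, where few substitutions were absent. In the folds, 16 of 72 lysine and arginine changes were absent (22.2%) and 6 of 12 tyrosine changes (50%), beside 18.3% of all fold substitutions. Alanine was absent in 6 of 27 lysine strains (22.2%), arginine in 3 of 27 (11.1%) and glutamine in 1 of 25 (4%). Within the folds these were 5 of 13 (38.5%), 3 of 13 (23.1%) and 0 of 11. Of the 27 lysines with both an alanine and an arginine strain, the alanine strain alone was absent at 6 (H3K42, H3K115, H4K44, H4K59, H4K79 and H4K91), the arginine strain alone at 3 (H3K56, H3K122 and H4K31) and both at none. H3K56 is acetylated in newly made H3, and at this residue H3K56A and H3K56Q had 202 and 2409 counts. At H3K122, on the DNA at the centre of the nucleosome, H3K122A and H3K122Q had 45 and 1809 counts. Of 25 arginines with both an alanine and a lysine strain, both were absent at 3 (H3R53, H3R63 and H4R35), alanine alone at H3R49 and lysine alone at H3R129. These 3 arginines were the only residues with more than 1 listed substitution at which every listed strain was absent. Of 10 glutamates with an alanine and a glutamine strain, alanine alone was absent at H3E105 and H4E53 and glutamine alone at H4E74.

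The barcodes at H3R63, which enters the minor groove of the DNA, and at H4R35 are given because no strain at either residue was counted, and again carry no capitals.
H3R63A, up barcode: acgctcgtatcactggttat
H3R63A, down barcode: aatcggcgctcacgcttagt
H3R63K, up barcode: gggtctatcctcactctagt
H3R63K, down barcode: taaggtgcggcaacgtctac
H4R35A, up barcode: tgggcacagacaacctagca
H4R35A, down barcode: gcaagacttagcaactccta
H4R35K, up barcode: ggccataacatgcaagtgta
H4R35K, down barcode: gcggtactctcacttcatat
The 4 strains thus rest on 8 barcodes of different sequence, each at 0 in every library.

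The structural lists gave shares on both sides of that of all strains. Of minor-groove arginines 3 of 8 changes were absent (37.5%), H3R49A, H3R63A and H3R63K. In the dyad region, the H3 residues at the centre of the wound DNA, 3 of 11 were absent (27.3%), H3K115A, H3Q120A and H3K122R. Of core lysines 8 of 37 were absent (21.6%), and of the H4 surface that packs on H2B 2 of 10, H4Y72E and H4Y88E. The H4 strand that docks on H2A had 2 of 12 absent. The LRS surface, at which loss of rDNA silencing mutations lie, had 2 of 28 (7.14%), H3L82A and H4K79A, and the interface between the H3 copies had none of 6. These 6 were H3F104A, H3D106A, H3D106N, H3L109A, H3A110S and H3A127S, and the other residues listed for that interface had no named strain. Of the SIN positions, at which changes relieve the need for a chromatin remodeller, 1 of 3 was absent, H3E105A. The counted ones were H3E105Q and H4V43A, and the other SIN positions had no named strain. These shares stand beside 18.3% for all fold substitutions and were not tested.

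Counted by residue, 38 of the 211 residues with a listed substitution held an absent strain, and at 13 of the 38 it was the only strain listed. Of the other 25 residues, 3 had all strains absent and 22 held both kinds, with alanine absent at 12 and counted at 10. The longest stretch of neighbouring residues with an absent strain was H4 residues 72 to 74. Of the 237 residues of both histones, 20 in H3 and 6 in H4 held no substitution named in the barcode table and were not analysed here. Several of those in H3 lay in the αN helix.

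The strains with counts at the residues that also held an absent strain were followed in the quiescent libraries, since their counts were not used to choose the absent strains. There were 30, of which 29 were kept and H3K122A was not. Their median level at day 0 was 2365 CPM (393 to 7139), against 2049 in 268 other kept substitutions (111 to 12549), and the ranges overlapped widely. The slope of a strain's share on log2(day + 1) was fitted with edgeR's quasi-likelihood test across 347 strains, the wild type included. Because the pool was diluted before the incubation, a slope from day 0 spans the growth after dilution as well as stationary phase. Of the 29, 9 fell and 4 rose at a Benjamini-Hochberg adjusted p under 0.05, beside 27.1% falling and 21.6% rising of all strains tested, so neither share stood far from that of all strains. Rising calls numbered 8 (27.6%) without day 0, 7 (24.1%) without day 5 and 2 (6.9%) without day 34 or day 44. Of all strains tested, 26.8%, 30%, 15% and 15.3% rose in these settings, in that order. The median slope was -0.091 over the 29 (-0.81 to 0.39) and -0.0090 over all, in log2 units per unit of log2(day + 1). In the non-quiescent libraries 1 of the 29 fell and 0 rose by the same edgeR test, against 5.76% falling and 0.865% rising of all strains, and 6 fell and 0 rose at an unadjusted p under 0.05. The error here is the scatter of 10 serial libraries of 1 culture about the line, and another culture could differ by more than these p-values allow.

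The steepest falls among them were at residues of the H3 fold and of H4 α3. H3S86D, whose alanine counterpart was absent, ranged from 315 to 7004 CPM over the 10 quiescent libraries with a median of 4453, and was at 315 at day 44 and 5348 at day 0. Its slope was -0.81 ± 0.15 (SE, edgeR adjusted p = 0.00153). H3K56A was at 11.9 CPM at day 44 and 551 at day 0, with a slope of -0.79 ± 0.23 (edgeR adjusted p = 0.0165), but without the day 0 library its slope was 0.090 (edgeR adjusted p = 0.736). H3K56Q was at 154 CPM at day 44 and 3578 at day 0 and fell by 0.76 ± 0.10 per unit of log2(day + 1) (edgeR adjusted p = 0.000567). H4T82A was at 202 CPM at day 44 and 865 at day 0 (slope -0.47 ± 0.11, edgeR adjusted p = 0.00505). H3R49K, the lysine strain at the minor-groove arginine whose alanine strain was absent, was at 576 CPM at day 44 and 2343 at day 0 (slope -0.38 ± 0.067, edgeR adjusted p = 0.00142). Both strains at H3K56 were highest at day 0, and their medians over the quiescent libraries were 397 (H3K56Q) and 24.4 CPM (H3K56A). Over days 7 to 44 neither slope passed (edgeR adjusted p = 0.119 for H3K56Q and 0.723 for H3K56A).

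The 4 strains that rose were H3E105Q, H4K59R, H4Y51F and H3K115R, each a conservative change at a residue whose alanine strain was absent. H4K59R was at 5603 CPM at day 44 and 1770 at day 0 (slope 0.35 ± 0.048, edgeR adjusted p = 0.000572). H3K115R was at 5121 CPM at day 44 and 2865 at day 0 (slope 0.27 ± 0.066, edgeR adjusted p = 0.00638). H3E105Q was at 4189 CPM at day 44 and 1904 at day 0 (slope 0.39 ± 0.12, edgeR adjusted p = 0.0191), a call lost without day 34 (edgeR adjusted p = 0.0610) or day 44 (0.0624) and with the wild type as reference (0.0555). H4Y51F was at 7076 CPM at day 44 and 4477 at day 0 (slope 0.32 ± 0.12, edgeR adjusted p = 0.0416), a call lost without any 1 of days 1, 2, 3, 24, 34 and 44 (edgeR adjusted p = 0.0546 to 0.111), with library totals (0.0550), with the wild type as reference (0.115) and from the down barcode alone (0.0507). The rise was not steady in H3E105Q and H4Y51F. Over the quiescent libraries H3E105Q ranged from 441 to 4316 CPM and H4Y51F from 1311 to 7525. Their medians, 1598 and 3152 CPM, lay below their day 0 levels. The medians of H4K59R (2886 CPM) and H3K115R (3018 CPM) lay above theirs.

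The other strains at residues with an absent alanine strain did not move together. H3K42R, also a conservative change, fell, with a slope of -0.15 ± 0.045 (edgeR adjusted p = 0.0169), a call lost from the up barcode alone (edgeR adjusted p = 0.188), over days 7 to 44 (0.128) and without day 0, 24, 34 or 44 (0.0509 to 0.0719). H4E53Q did not pass, with a slope of 0.12 ± 0.048 (edgeR adjusted p = 0.0601), and these 2 were added after their values were seen. H4K44R, in the L1 loop, was at 220 CPM at day 44 and 815 at day 0 (slope -0.22 ± 0.073, edgeR adjusted p = 0.0305), a call lost without day 0, 1, 34 or 44 (edgeR adjusted p = 0.0704 to 0.142) or over days 7 to 44 (0.139). H3K115Q had 17 counts in the quiescent library of day 44 and 72 in that of day 0, and its slope of -0.19 ± 0.16 did not pass (edgeR adjusted p = 0.346). The slopes of H4K59Q (0.0058), H4K79R (-0.10), H4K79Q (-0.058), H4K91R (-0.0090) and H4Y98F (-0.015) did not pass either. H4Y98F and H4K79Q were among the higher of these strains, with 28065 and 27256 counts in all, both above the wild type. The absence of a strain at a residue was thus found beside counterparts that ranged from 45 counts (H3K122A) to 28065 counts (H4Y98F).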

How the data were processed

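Each deposited library file held raw read counts of the up and the down barcode of 488 entries, which were 487 distinct pairs, which the authors obtained from Illumina reads with the tools get_seqs_from_fastq and then match_barcodes_to_strain (versions not given in the sources used here). No genome build applies. A deposited table paired barcode identifiers, the unit "other" in which nothing is measured, with mutations. Up and down counts were summed and joined by both identifiers. The wild type was listed 2 times under 1 pair, which accounts for the extra entry, and the first listing was used. A second deposited table holds log2 values that the authors made from these counts, and its values were not used; of its 408 strain names, none was an absent strain and 350 were strains with counts.

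Residues are numbered without the initiator methionine, with the H3 tail at 1 to 43 and the H4 tail at 1 to 29. The filter on low values kept strains that averaged 10 or more counts a library. Trends were fitted with edgeR 4.0.16 (R 4.3.3) after TMM normalization, by its quasi-likelihood test with Benjamini-Hochberg adjustment over 347 strains, without a term for replicate, and were tested on simulated data. DESeq2 1.42.0 was an alternative. CPM were computed here from all counts of a library. Python 3.11.15 with pandas 2.3.3 and scipy 1.17.1 was used. All absent strains, the steepest called slopes among strains at the same residues (5 in each direction), the strains at listed residues with an absent alanine strain, the 10 lowest strains with counts and the wild type are named. The members, residue lists and alternatives were chosen with earlier results of these data known.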

Additional observations from a re-analysis of the deposited data

Results flagged for a closer look

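Besides the named strains and the wild type, the count files held 65 barcode pairs without a strain name in the table used here. Of these, 57 had counts, each above 3 in all, and 8 were at 0, and together they took 10.6% to 20.7% of a library's counts. Data outside the comparisons thus carried signal. None of the 68 absent strains shared an up or a down identifier with an unnamed pair, and the identity of the unnamed pairs was not analysed here.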

How the results depend on the processing

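The number of absent strains was 68 from the up barcode alone, at a limit of 3 counts, in either fraction alone, in the day 0 libraries alone or with identifiers looked up separately, and 69 from the down barcode alone or at a limit of 20 counts. The shares per kind, those of the tails with borders moved by 2 residues (H3 3.75%, H4 5.66%, against 2.53% and 2.08%), that of hydrophobic residues without tyrosine (14.7%) and the median day 0 level stayed within their 95% binomial intervals (Clopper-Pearson) or quartiles. Every strain had a down identifier, so leaving out strains without one could not be run.

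Of the 29 strains at the same residues, 1 fell and 0 rose in the non-quiescent libraries (edgeR), beside 5.76% falling and 0.865% rising of all strains. Over days 7 to 44, 5 fell (17.2%) and 4 rose (13.8%), beside 22.8% and 17.9% of all strains. With the wild type as the reference 13 fell (44.8%) and 2 rose (6.9%), beside 37.8% and 12.4% of all strains. Leaving out 1 day in turn gave 7 to 10 falling and 2 to 8 rising strains, beside 20.7% to 27.1% falling and 15% to 30% rising of all strains. Rising calls numbered 8 without day 0, 7 without day 5 and 2 without day 34 or 44. With DESeq2, 9 fell and 5 rose in the quiescent libraries, beside 28.8% falling and 23.6% rising of all strains. DESeq2 was not run on the non-quiescent libraries. Slopes of the opposite sign were found in the non-quiescent libraries for H3K42R (0.010), H3R49K (0.0072), H3T58A (0.0036), H4K44R (0.057), H4T82A (0.032) and H4Y51F (-0.095), and the cause was not tested. Leaving out 1 day in turn, the slope of H3K56A ran from -0.98 (without day 34) to 0.090 (without day 0). Of the single-strain slopes under all alternatives, 196 kept their call, 31 kept their direction only and 7 reversed. For the slopes, no paired analysis was possible because each day had 1 quiescent library, so a term for day would leave no slope to fit. A contrast of the fractions within each day was not run.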
